A study of Mus musculus with 70 samples.

Results

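The immediate early genes followed through the pituitary data, with one of their known downstream enzymes, were *Fos*, *Fosb*, *Jun*, *Junb*, *Egr1*, *Egr2*, *Ier2*, *Atf3*, *Dusp1* and *Ptgs2*. The 10 genes were taken by gene symbol, with the transcript of highest mean level where a symbol had several, from the 22835 symbols (29082 transcripts) of the deposited RNA table. Their RNA level was read in 18 pituitary libraries, and their loci were searched in 3 peak lists, those of thyroid hormone receptor β (TRβ) binding in untreated pituitary and in untreated cerebral cortex and that of chromatin sites regulated by the thyroid hormone T3.

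The RNA came from adult male C57BL/6J mice, and each library pooled 3 whole pituitaries. All mice received 0.05% methimazole (MMI), which blocks hormone synthesis in the thyroid, and 1% potassium perchlorate, which blocks its iodide uptake, in the drinking water for 4 to 5 weeks. Hypothyroid mice received nothing else, and hyperthyroid mice also received 0.5 µg/ml T3 during the final 1 week. Both treatments were given to wild-type mice (4 libraries each) and to mice labelled *Thrb*-KO, a germline disruption of the gene that encodes TRβ (5 libraries each). TRβ binding was mapped in HAB;BirA mice, which carry a tagged TRβ that the ligase BirA biotinylates, against BirA mice without the tag. The T3-regulated sites came from ATAC-seq, which reads open chromatin, of pituitary nuclei labelled through Cre expressed from the *Thrb* locus, in hypothyroid and hyperthyroid mice.

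Immediate early genes are transcribed within minutes of a stimulus without new protein synthesis, because the factors that switch them on, such as CREB and SRF with its ELK partners, wait in the cell to be phosphorylated. FOS and JUN proteins pair as the transcription factor AP-1, the EGR proteins are zinc finger factors, ATF3 is a stress-induced factor of the ATF/CREB family, and DUSP1 is a phosphatase that switches MAP kinases off again. *Ptgs2* encodes cyclooxygenase-2, the inducible enzyme that commits arachidonic acid to prostaglandin synthesis. In the pituitary such genes are known to respond to hypothalamic releasing hormones.

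The libraries held 21453548 to 55273749 reads (median 34673225), so that 3 reads correspond to 0.0543 to 0.140 CPM, read counts scaled to the total of the library. Replicates 1 and 2 of every group formed a set apart from replicates 3 to 5, with *Lars2* at 2571 to 3420 CPM in the first set and 53.2 to 95.1 CPM in the second, and values within each set are given for the members whose calls differ between sets. The whole-gene level of *Thrb* in hypothyroid mice was the same in range for both genotypes, with 239 to 295 CPM in the libraries labelled *Thrb*-KO and 239 to 297 CPM in wild type, and a whole-gene value cannot see a deleted stretch. In hyperthyroid mice *Thrb* lay at 72.4 to 124 CPM in wild type and at 228 to 301 CPM in the libraries labelled *Thrb*-KO. The hormone genes that define the anterior pituitary (*Gh*, *Prl*, *Tshb*, *Cga*, *Pomc*) were all above 1 CPM in every library. In whole tissue, fewer cells of a type cannot be told apart from less RNA per cell.

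Of the 10 members, *Ptgs2* was the only one that T3 changed in wild type by the rule used throughout, limma on log2(CPM + 1), where a gene is called past 1.5-fold if its p, adjusted after Benjamini-Hochberg over all genes, is below 0.05. It fell, and 10.4% of the 14472 genes fitted beside it were called in that comparison. No member was called for T3 in the libraries labelled *Thrb*-KO, where 1.01% of 13145 genes were, and none had an unadjusted p under 0.05 there (lowest 0.204, *Fos*). edgeR and DESeq2 on recovered reads called 0 members there as well (1.22% and 1.35% of genes), and over all genes 1077 of 13145 had an unadjusted p under 0.05 by limma. The difference between the T3 responses of wild type and *Thrb*-KO was called for *Ptgs2* alone (5.13% of 14472 genes). *Ptgs2* passed the filter of this fit only through hypothyroid wild type, where it was high. With no filter on level the difference between responses was not called, and 6 of the 18 fits that left out 1 library called it. Between genotypes, *Ptgs2* was lower in hypothyroid *Thrb*-KO (3.54% of genes called) and *Atf3* was lower in hyperthyroid *Thrb*-KO (5.65%). Over all 13145 genes, limma called 509 higher and 735 lower for T3 in wild type, where edgeR with TMM scaling called 718 and 675. For the difference between responses the split was 234 and 326 by limma and 327 and 302 by edgeR, and between the hyperthyroid genotypes it was 334 and 305 by limma and 289 and 504 by edgeR. Each comparison shares a group of libraries with others, hypothyroid wild type being the reference of 3 of them, so that the calls of *Ptgs2* are not independent of each other.

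**Figure D1:**
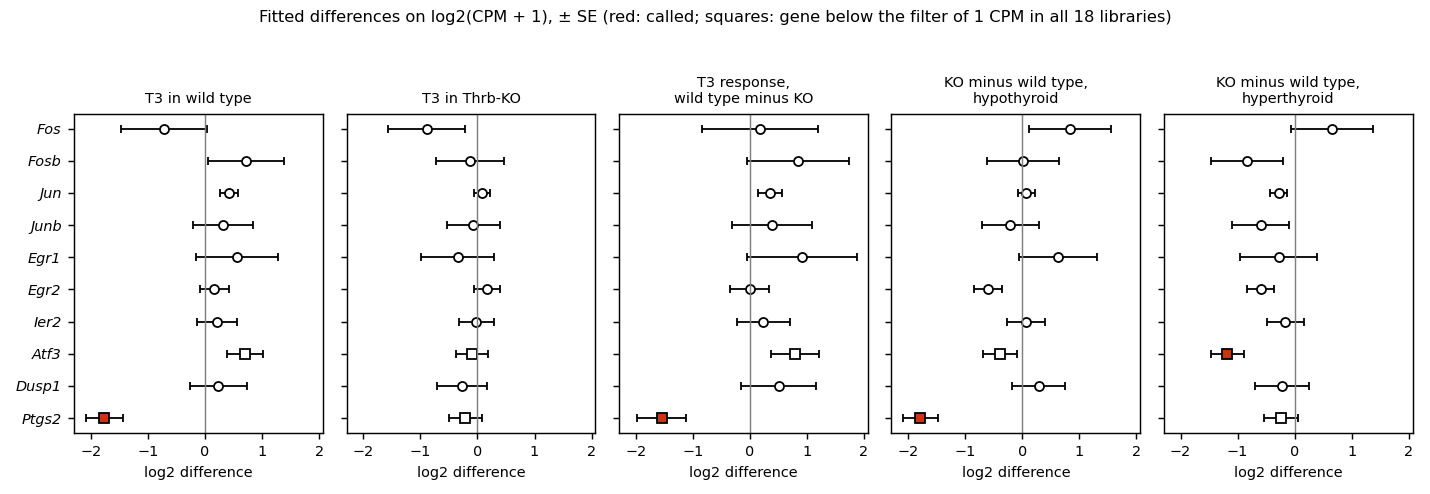
Fitted differences of the 10 genes in log2(CPM + 1) (x axis) for 5 comparisons (panels), with bars of ± 1 standard error. Filled red symbols passed the call, squares mark *Atf3* and *Ptgs2*, which were below 1 CPM in some libraries, and the 3 red symbols of *Ptgs2* lie between -1.79 and -1.55.

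*Ptgs2* was high in hypothyroid wild-type pituitary alone among the 4 groups. Its CPM values in hypothyroid wild type were 1.71, 2.59, 6.47 and 12.1 (60 to 335 reads). In hyperthyroid wild type they were 0.540, 0.989, 0.365 and 0.733 (9 to 36 reads). All hypothyroid wild-type libraries lay above all others, and they differed among themselves by 7.09-fold, with the set of replicates 1 and 2 below the set of replicates 3 and 4. The hypothyroid libraries labelled *Thrb*-KO had 0.615, 0.818, 0.470, 0.624 and 0.544 CPM. The hyperthyroid ones had 0.625, 0.557, 0.405, 0.221 and 0.186 CPM, the lowest resting on 4 reads. The 5 + 5 libraries labelled *Thrb*-KO thus stayed under 1 CPM with or without T3, as did hyperthyroid wild type.

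The mean of *Ptgs2* in hypothyroid wild type (5.73 ± 4.75 CPM, SD, n = 4) was 8.73 times that in hyperthyroid wild type (0.657 ± 0.268, n = 4) and 9.33 times that in hypothyroid *Thrb*-KO (0.614 ± 0.130, n = 5). Hyperthyroid *Thrb*-KO had 0.399 ± 0.195 CPM (n = 5). With T3, *Ptgs2* fell by 1.76 ± 0.32 (SE) on the log2(CPM + 1) scale in wild type (limma, adjusted p = 4.74e-04), and the difference in *Thrb*-KO was -0.21 ± 0.29. The wild-type response minus the *Thrb*-KO response was -1.55 ± 0.43 (adjusted p = 0.038), and *Thrb*-KO lay below wild type in hypothyroid mice by -1.79 ± 0.31 (adjusted p = 7.53e-04). The groups did not overlap for T3 in wild type (exact permutation test, two-sided, p = 0.0286, the smallest that 4 against 4 allows) or between the hypothyroid genotypes (exact p = 0.0159, the smallest for 4 against 5), where 18.4% and 14.6% of genes did not overlap either. *Ptgs2* exceeded 1 CPM in exactly 4 libraries, those of hypothyroid wild type, so that it entered the fit only through the group where it was high. In an edgeR fit of 21461 genes with no filter on level, added after seeing the data, in which 9.51% and 3.73% of genes were called in these comparisons, the log2 fold of *Ptgs2* was -3.07 for T3 in wild type (adjusted p = 1.39e-04) and -3.27 between the hypothyroid genotypes (adjusted p = 1.06e-04), and the difference between responses was -2.53 with an adjusted p of 0.0502. The pseudocount of 1 CPM makes the limma values of so low a gene smaller than the ratio of its levels.

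Within the library sets the *Ptgs2* difference kept its direction and changed in size. The filter was the one set on all 18 libraries, which *Ptgs2* passed only through hypothyroid wild type. The fits by set and those leaving out 1 library carry that selection and cannot measure it. Replicates 1 and 2 alone called 9.54% of genes for T3 in wild type, 5.95% for the difference between responses, 3.04% between the hypothyroid and 5.48% between the hyperthyroid genotypes, and replicates 3 to 5 alone called 11.5%, 3.99%, 4.78% and 8.47%. For T3 in wild type, replicates 1 and 2 alone gave -0.84 (adjusted p = 0.00117) and replicates 3 to 5 alone gave -2.69 (adjusted p = 7.63e-06). Between the hypothyroid genotypes *Ptgs2* had -0.87 (adjusted p = 0.00266) and -2.68 (adjusted p = 1.44e-05) in the same order. The difference between responses was -0.73 in replicates 1 and 2, which did not pass (adjusted p = 0.0618), and -2.40 in replicates 3 to 5 (adjusted p = 5.12e-04). It also lost its call when any of 12 single libraries was left out (adjusted p 0.0503 to 0.0908, the highest without hypothyroid wild-type replicate 3) and kept it without the other 6 (0.00334 to 0.0499). Those 12 were hypothyroid wild-type replicate 3, hyperthyroid wild-type replicates 1, 3 and 4, hypothyroid *Thrb*-KO replicates 1, 3, 4 and 5, and hyperthyroid *Thrb*-KO replicates 1 to 4.

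**Figure D2:**
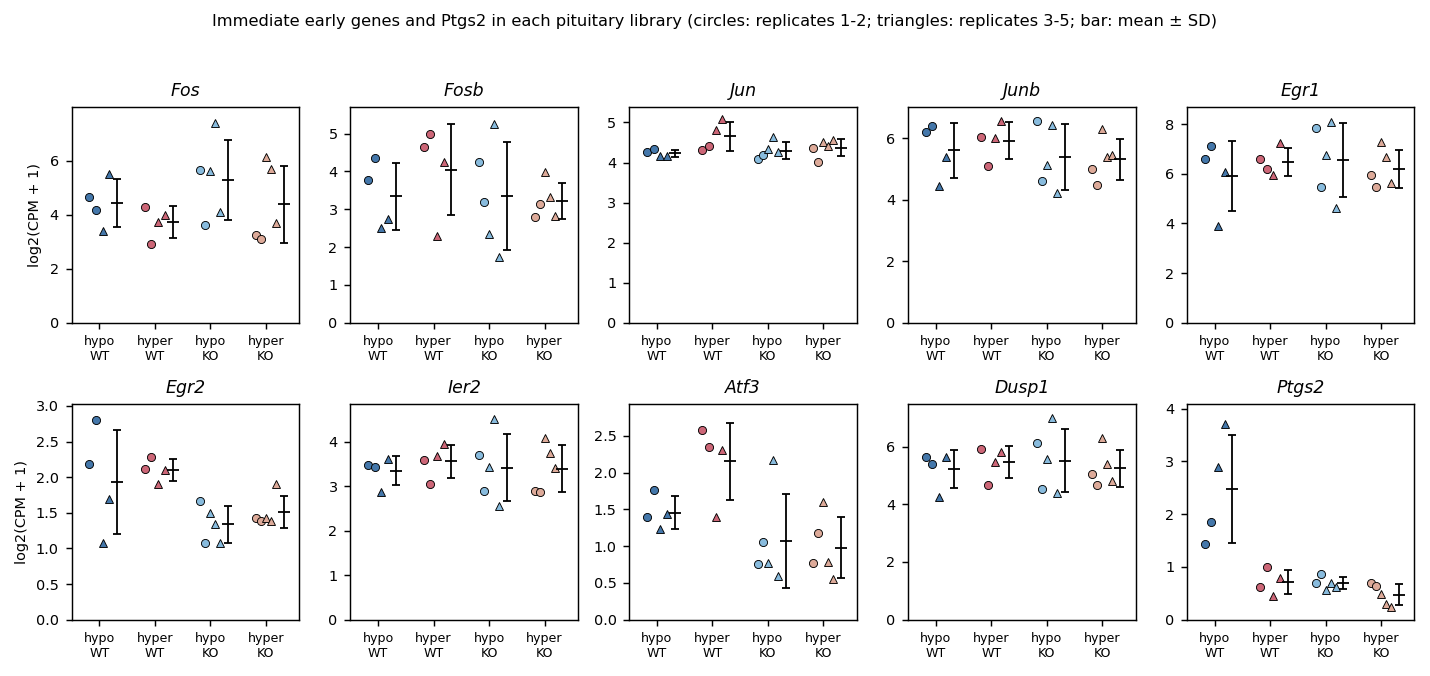
Level of each of the 10 genes in log2(CPM + 1) (y axis) in the 18 libraries, by group (x axis), with circles for replicates 1 and 2, triangles for replicates 3 to 5 and bars for mean ± SD. *Ptgs2* is the gene whose hypothyroid wild-type points all lie above the other groups, while the points of *Fos*, *Fosb*, *Junb* and *Egr1* spread widely within each group.

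The start of *Ptgs2* carried a T3-regulated site of open chromatin. *Ptgs2* lies on the plus strand of chromosome 1 of mm9, from 151947254 to 151955140, and the ATAC peak at chr1:151946928-151947424 covered its annotated start and also that of *7530420F21Rik*. The list was used here for positions only and says nothing here of whether T3 opened or closed the site. No TRβ peak lay within 20 kb of *Ptgs2* in either tissue, and the nearest were 645111 bp away in the pituitary list and 360804 bp away in the cortex list. The part of the peak before both annotated starts (the GENCODE start and a RefSeq start 93 bp before it) is shown as the stretch of this gene that lies in the T3-regulated site. It holds none of the motifs marked here. The shorter stretch (chr1:151947165-151947190) lies in the peak between the RefSeq and the GENCODE start. It is shown because it holds both motif matches of the 250 bases before the GENCODE start. Capitals mark TGACG, the core of the cAMP response element, read on either strand, and the E-box CACGTG, which overlap here by 2 bases.
*Ptgs2*, chr1:151946928-151947160: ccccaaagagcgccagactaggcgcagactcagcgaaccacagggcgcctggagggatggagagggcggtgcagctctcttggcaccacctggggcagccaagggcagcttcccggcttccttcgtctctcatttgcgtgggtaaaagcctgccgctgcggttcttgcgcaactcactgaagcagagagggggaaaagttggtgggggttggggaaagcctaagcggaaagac
*Ptgs2*, chr1:151947165-151947190: tcaccactaCGTCACGTGgagtccgc

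Among other genes of prostaglandin synthesis, signalling and removal (21 listed, 11 above 1 CPM in all libraries), T3 in wild type called 2 higher and 0 lower (background 3.87% and 5.59%), and the median difference was -0.02 against -0.04 for all genes tested. *Ptges*, the synthase that turns the product of cyclooxygenase into prostaglandin E2, rose from 21.8 ± 2.86 to 48.2 ± 8.38 CPM with T3 in wild type (log2 difference 1.11, adjusted p = 5.89e-06), opposite to *Ptgs2*. It was also higher in hypothyroid *Thrb*-KO than in hypothyroid wild type (41.9 ± 5.61 CPM, log2 difference 0.91, adjusted p = 1.18e-04). *Hpgd*, which inactivates prostaglandins, was lower in hypothyroid *Thrb*-KO (3.28 ± 0.493 against 6.01 ± 0.851 CPM, log2 difference -0.71, adjusted p = 0.00188). *Ptger4*, a prostaglandin E2 receptor that was below 1 CPM in some libraries, was read from the same wider fit as *Ptgs2*. Its CPM values were 4.08, 3.94, 4.52 and 3.73 in hypothyroid wild type and between 0.615 and 1.81 in the other 14 libraries. *Ptger4* fell by 1.07 with T3 in wild type (adjusted p = 3.38e-05), differed between the responses by -1.16 (adjusted p = 0.00118) and was lower in hypothyroid *Thrb*-KO by -1.36 (adjusted p = 3.63e-06), with a difference of 0.09 for T3 in *Thrb*-KO. *Ptgis*, the prostacyclin synthase, was read from that fit too and moved the other way, from 1.19 ± 0.176 CPM in hypothyroid to 3.55 ± 1.91 CPM with T3 in wild type (0.98, adjusted p = 5.66e-04). *Ptgis* differed between the responses by 1.02 (adjusted p = 0.0143) and was lower in hyperthyroid *Thrb*-KO by -0.92 (adjusted p = 0.00116). These were the 2 of 5 listed genes below the filter that were called. The wider fit called 10.4% of 14472 genes for T3 in wild type and 5.13% for the difference between responses. It called 3.54% between the hypothyroid and 5.65% between the hyperthyroid genotypes.

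Immune markers, as *Ptgs2* is also made by macrophages, moved in part with it. The summed level of 4 markers (*Ptprc*, *Cd68*, *Csf1r*, *Aif1*) spanned 52.2 to 57.5 CPM (hypothyroid) and 35.3 to 58.6 CPM (hyperthyroid) in wild type, and 30.3 to 36.1 CPM and 30.2 to 37.2 CPM in *Thrb*-KO. Of the 3 markers tested, *Csf1r* was called lower in hypothyroid *Thrb*-KO, where 2.01% of 13145 genes were. For T3 in wild type 0 of the 3 were called (background 3.87% higher and 5.59% lower). None of the 4 markers was at 0. Summed endothelial markers overlapped between all groups (112 to 176, 68.6 to 159, 112 to 160 and 85.7 to 132 CPM in the same order). Summed markers of the posterior lobe were at 10.4 to 14.9, 14.7 to 34.7, 10.2 to 17.1 and 13.5 to 20.3 CPM, with no marker called by limma (4 of 20 pairs of a marker and a comparison had an unadjusted p under 0.05). Of all 13145 genes, 3776 had such a p for T3 in wild type and 1077 in *Thrb*-KO. The number was 1968 for the difference between responses, 2415 between the hypothyroid and 3213 between the hyperthyroid genotypes. The part of immune, endothelial and posterior lobe cells in the *Ptgs2* values was not tested.

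*Atf3* was highest in hyperthyroid wild type and differed there from *Thrb*-KO. Its CPM values were 1.63, 2.39, 1.35 and 1.70 in hypothyroid wild type and 4.97, 4.09, 1.62 and 3.93 in hyperthyroid wild type. In the libraries labelled *Thrb*-KO they were 0.683, 1.08, 0.706, 3.48 and 0.512 without T3 and 0.706, 1.25, 2.03, 0.725 and 0.466 with T3. Replicate 3 of hyperthyroid wild type was the lowest of its group and lay inside the range of hyperthyroid *Thrb*-KO, so that these groups overlapped. *Atf3* was lower in hyperthyroid *Thrb*-KO (1.04 ± 0.624 CPM, n = 5) than in hyperthyroid wild type (3.65 ± 1.43, n = 4), by -1.18 ± 0.29 on the log2(CPM + 1) scale (limma, adjusted p = 0.0100; exact permutation test, two-sided, p = 0.0317). The difference was -1.49 in replicates 1 and 2 (adjusted p = 1.81e-05) and -0.87 in replicates 3 to 5, where the call was lost (adjusted p = 0.164). With T3 in wild type *Atf3* had 0.70 ± 0.31 (adjusted p = 0.132), and without hyperthyroid wild-type replicate 3 (0.95, adjusted p = 0.0281) or hypothyroid *Thrb*-KO replicate 4 (0.70, adjusted p = 0.0476) that difference was called. The difference between the responses was 0.79 ± 0.41 (adjusted p = 0.394). In replicates 1 and 2 alone *Atf3* was also called higher for T3 in wild type and for the difference between responses. It was called lower there between the hypothyroid genotypes. Replicates 3 to 5 alone and the 18 libraries together did not give these calls. *Atf3* was above 1 CPM in 12 of 18 libraries, its lowest value rested on 10 reads, and it lies on the minus strand of chromosome 1 (192994175 to 193007219).

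The AP-1 subunits differed more between replicates than between groups. *Fos* had 24.2, 17.1, 9.60 and 44.8 CPM in hypothyroid wild type and 18.2, 6.54, 12.1 and 15.0 CPM in hyperthyroid wild type. In the libraries labelled *Thrb*-KO it had 48.9, 11.3, 48.3, 166 and 16.0 CPM without T3 and 8.56, 7.57, 69.5, 50.8 and 12.1 CPM with T3. Replicates of 1 group spanned up to 14.6-fold, and all 4 groups overlapped. The *Fos* difference for T3 was -0.72 ± 0.76 in wild type (limma, adjusted p = 0.629) and -0.89 ± 0.68 in *Thrb*-KO (adjusted p = 1.00). *Fosb* ranged from 4.64 to 19.6 CPM (hypothyroid) and 3.93 to 31.1 CPM (hyperthyroid) in wild type and from 2.30 to 36.9 CPM and 5.98 to 14.8 CPM in *Thrb*-KO, and its difference for T3 in wild type was 0.71 ± 0.66 (adjusted p = 0.571). *Junb* ranged from 20.7 to 82.2, 33.4 to 92.4, 17.4 to 93.3 and 21.2 to 77.2 CPM in the same groups, with 0.32 ± 0.52 for T3 in wild type (adjusted p = 0.782). In replicates 1 and 2 alone *Fosb* was called for T3 in wild type (0.76, adjusted p = 0.038), for the difference between responses (1.51, adjusted p = 0.0167) and between the hyperthyroid genotypes (-1.85, adjusted p = 1.43e-04), calls that the 18 libraries together did not give.

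*Jun* varied less within groups than its partners, though its spread stood at the percentile 67.5 of all genes. Its CPM values were 18.3, 19.2, 17.0 and 16.9 in hypothyroid wild type and 18.8, 20.4, 27.2 and 32.7 in hyperthyroid wild type. The 10 libraries labelled *Thrb*-KO lay between 15.2 and 23.8 CPM. The 2 highest *Jun* values were replicates 3 and 4 of hyperthyroid wild type, and replicates 1 and 2 of that group lay within or near the range of the hypothyroid group. *Jun* had a difference of 0.42 ± 0.16 for T3 in wild type, which did not pass (limma, adjusted p = 0.070; exact permutation test, two-sided, p = 0.0571), and 0.07 ± 0.14 in *Thrb*-KO. Within the sets the wild-type difference was called in replicates 3 to 5 (0.79, adjusted p = 0.00241) and was 0.06 in replicates 1 and 2 (adjusted p = 0.725). On mm9 a *Jun* exon shares 232 bp with the antisense gene *BC042782*, and the reads were not stated to be counted by strand.

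The bases before the annotated starts of *Fos* (plus strand of chromosome 12, 86814840 to 86818223), *Fosb* (minus strand of chromosome 7, 19888070 to 19895394) and *Junb* (minus strand of chromosome 8, 87500811 to 87502617) are shown because these AP-1 genes share the cAMP response core. They read 5′ to 3′ in the direction of the gene, with TGACG on either strand in capitals. In *Fosb* the EGR motif GCGNGGGCG is in capitals as well. The stretch of *Junb* stops 30 bp before its GENCODE start, at an earlier RefSeq start.
*Fos*, chr12:86814590-86814839: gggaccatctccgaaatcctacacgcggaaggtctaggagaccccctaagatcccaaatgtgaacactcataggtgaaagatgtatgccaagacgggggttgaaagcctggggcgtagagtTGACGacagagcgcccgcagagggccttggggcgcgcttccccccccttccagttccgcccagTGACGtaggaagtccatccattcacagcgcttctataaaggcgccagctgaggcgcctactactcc
*Fosb*, chr7:19895395-19895644: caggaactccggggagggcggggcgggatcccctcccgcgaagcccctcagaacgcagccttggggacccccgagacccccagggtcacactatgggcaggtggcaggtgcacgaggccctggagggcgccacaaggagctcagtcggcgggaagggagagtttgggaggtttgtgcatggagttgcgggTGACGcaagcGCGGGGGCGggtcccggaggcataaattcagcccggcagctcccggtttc
*Junb*, chr8:87502648-87502867: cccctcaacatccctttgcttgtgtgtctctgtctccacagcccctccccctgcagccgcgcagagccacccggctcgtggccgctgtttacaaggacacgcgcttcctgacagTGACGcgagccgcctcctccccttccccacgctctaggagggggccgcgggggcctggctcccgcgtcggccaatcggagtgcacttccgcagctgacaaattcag

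The EGR factors split in the same way, *Egr1* wide and *Egr2* narrower. *Egr1* (plus strand of chromosome 18, 35020861 to 35024638) ranged from 14.0 to 137 CPM (hypothyroid) and 60.4 to 149 CPM (hyperthyroid) in wild type and from 23.6 to 268 CPM and 43.5 to 157 CPM in *Thrb*-KO. Its 5 fitted differences had adjusted p-values of 0.705 to 1.00. *Egr2*, a factor of myelinating and immune cells (plus strand of chromosome 10, 66998223 to 67004936), had 3.54, 5.95, 1.10 and 2.25 CPM in hypothyroid and 3.35, 3.85, 2.76 and 3.27 CPM in hyperthyroid wild type. The libraries labelled *Thrb*-KO had 2.19, 1.11, 1.83, 1.54 and 1.12 CPM without T3 and 1.68, 1.61, 1.69, 1.61 and 2.75 CPM with T3. All hyperthyroid wild-type values of *Egr2* lay above all hyperthyroid *Thrb*-KO values (2.76 CPM against 2.75 CPM at the nearest), where 11.3% of 13145 genes did not overlap (exact permutation test, two-sided, p = 0.0159, the smallest that 4 against 5 allows). *Egr2* was lower in *Thrb*-KO by -0.60 ± 0.24 in hypothyroid mice (limma, adjusted p = 0.169) and by -0.59 ± 0.24 in hyperthyroid mice (adjusted p = 0.126), and neither passed. Both differences passed in replicates 1 and 2 alone (-1.11, adjusted p = 0.0020, and -0.79, adjusted p = 0.0121) and without hypothyroid wild-type replicate 3 (-0.89, adjusted p = 0.0141, and -0.59, adjusted p = 0.0441), and the hyperthyroid one also without hypothyroid wild-type replicate 2 (-0.59, adjusted p = 0.0458).

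*Ier2*, an early response gene of no agreed enzymatic function, and *Dusp1* were the members whose values followed the others most closely (median r of 0.83 and 0.89 between deviations from group means). *Ier2* (minus strand of chromosome 8, 87185230 to 87186751) ranged from 6.31 to 11.3 CPM (hypothyroid) and 7.25 to 14.4 CPM (hyperthyroid) in wild type and from 4.89 to 21.9 CPM and 6.32 to 15.9 CPM in *Thrb*-KO. *Dusp1* (minus strand of chromosome 17, 26642535 to 26645464) ranged from 18.1 to 48.8, 24.7 to 59.5, 20.1 to 125 and 24.6 to 77.4 CPM in the same groups. For T3 in wild type *Ier2* had 0.21 ± 0.35 (limma, adjusted p = 0.784) and *Dusp1* 0.23 ± 0.50 (adjusted p = 0.837), both smaller than their standard errors.

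The sequence next to *Dusp1* is shown because a TRβ peak in each tissue ends here, 137 bp before the start, and because the stretch between peak and start holds a full cAMP response element TGACGTCA. Both read in the direction of the gene, with TGACG on either strand and CACGTG in capitals.
*Dusp1*, pituitary TRβ peak, chr17:26645601-26645900: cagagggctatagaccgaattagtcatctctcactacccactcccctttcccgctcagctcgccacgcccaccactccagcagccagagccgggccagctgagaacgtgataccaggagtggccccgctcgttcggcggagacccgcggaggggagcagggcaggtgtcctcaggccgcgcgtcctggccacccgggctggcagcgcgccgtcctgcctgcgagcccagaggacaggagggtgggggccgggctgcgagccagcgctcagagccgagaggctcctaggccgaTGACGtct
*Dusp1*, peak to start, chr17:26645465-26645600: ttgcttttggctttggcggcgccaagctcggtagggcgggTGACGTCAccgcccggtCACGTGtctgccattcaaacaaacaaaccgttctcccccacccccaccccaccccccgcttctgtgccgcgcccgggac

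Spread between replicates was the shared property of most members. The within-group SD of log2(CPM + 1) was 1.21 for *Fos*, 1.14 for *Egr1*, 1.06 for *Fosb*, 0.83 for *Junb*, 0.79 for *Dusp1* and 0.55 for *Ier2*, where the median of 13145 genes was 0.19. *Fos* stood at the percentile 99.98 of all genes, *Ier2* at 98.4, *Egr2* (SD 0.39) at 93.4 and *Jun* (SD 0.23) at 67.5. The high and low values fell into the same libraries. Replicate 4 of hypothyroid *Thrb*-KO was the highest of its group for 6 of the 8 members above 1 CPM in all libraries, and so was replicate 3 of hyperthyroid *Thrb*-KO. Replicate 3 of hypothyroid wild type was the lowest of its group for 7 of 8, replicate 2 of hyperthyroid *Thrb*-KO for 6 and replicate 5 of hypothyroid *Thrb*-KO for 5.

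**Figure D3:**
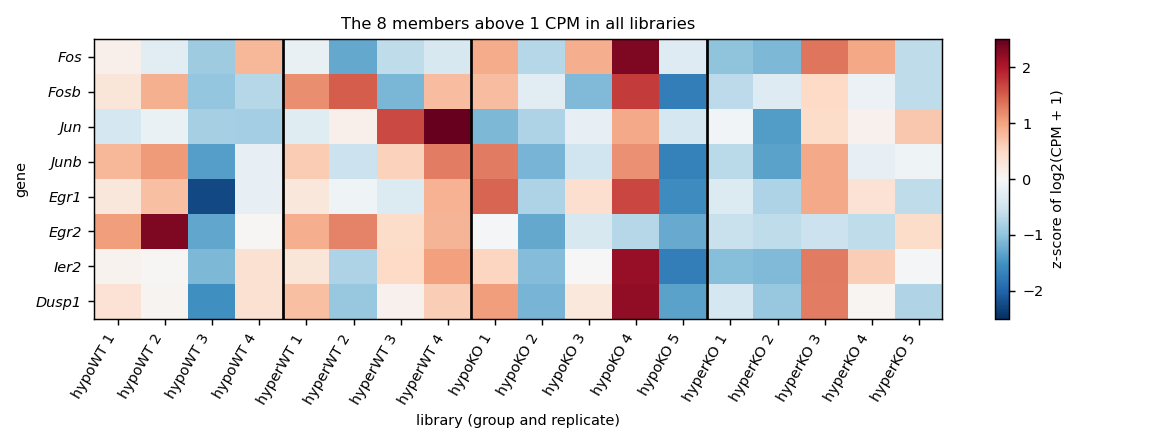
Level of the 8 genes above 1 CPM in all libraries (rows) in the 18 libraries (columns, black lines between groups), as z-scores of log2(CPM + 1) over the libraries. In columns such as hypoKO 4 (the highest of its group for 6 of 8 genes) and hypoWT 3 (the lowest of its group for 7 of 8) most genes moved together. *Jun* and *Egr2* followed the others less closely over the libraries.

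When each gene was taken as its deviation from the group mean, the 28 pairs of these 8 members had a median Pearson's r of 0.59 over the 18 libraries (0.04 to 0.94), and 17 pairs exceeded 0.5. The highest were *Ier2* with *Dusp1* (0.94), *Fos* with *Ier2* (0.92) and *Junb* with *Egr1* (0.92). *Egr2* had a median r of 0.34 and *Jun* of 0.40 with the others, so that *Jun* did not follow *Fos* (0.40) or *Fosb* (0.04) closely. The median over pairs was 0.55 without replicate 4 of hypothyroid *Thrb*-KO and 0.53 without the 2 most distant libraries. The points share libraries, dissections and depth, and the values are given as a description. Outside the members, the genes whose log2(CPM + 1) followed the mean z-score of the 8 members best over the 18 libraries, here without removing group means, were *Gem* (r = 0.85), *Gadd45b* (0.85), *Btg2* (0.84), *Ovca2* (0.79), *Arc* (0.72), *Pbld1* (0.70), *Mat2a* (0.68), *Errfi1* (0.67), *Shisa2* (0.65) and *Nr4a2* (0.63). Of these, *Gadd45b*, *Btg2*, *Arc*, *Errfi1* and *Nr4a2* stand on the lists of other early response genes used here.

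**Figure D4:**
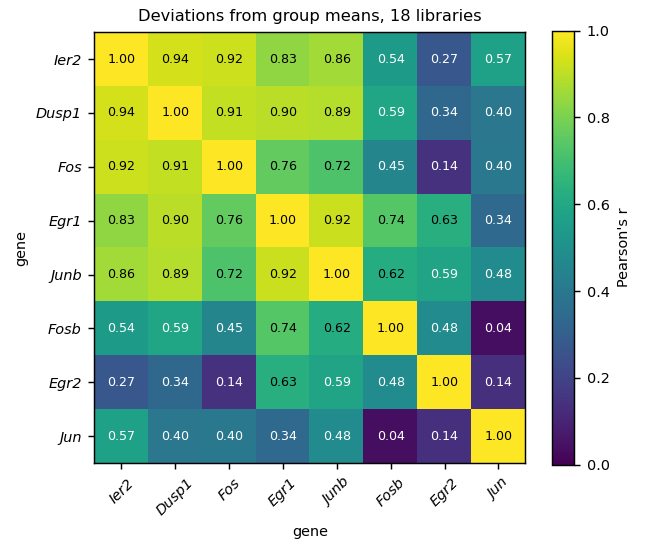
Pearson's r between the deviations from group means of 8 genes over 18 libraries, written in each cell and coloured from 0 to 1. The block of *Ier2*, *Dusp1*, *Fos*, *Egr1* and *Junb* has values of 0.72 to 0.94, and *Jun* and *Egr2* have lower values with most partners.

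Of 40 other early response genes tested (43 listed), T3 in wild type called 11 higher and 4 lower (background 3.87% higher and 5.59% lower), with a median of 0.15 against -0.04 for all genes. The list was chosen with earlier results of these data known, so its counts are a description and no test against the background. *Id3*, an inhibitor of basic helix-loop-helix factors, rose from 3.56 ± 0.879 to 12.8 ± 4.17 CPM (log2 difference 1.56, adjusted p = 8.14e-06). *Gadd45a*, a growth arrest gene, rose by 1.41 (adjusted p = 6.18e-06) and *Trib1*, a pseudokinase gene, by 1.35 (adjusted p = 2.20e-05). *Cyr61*, a secreted matrix protein gene, fell from 12.0 ± 3.68 to 4.71 ± 1.09 CPM (-1.16, adjusted p = 1.13e-04) and was lower in hypothyroid *Thrb*-KO as well (7.07 ± 0.447 CPM, -0.65, adjusted p = 0.0274), a call lost without hypothyroid wild-type replicate 2 or 4 or hypothyroid *Thrb*-KO replicate 1, 2 or 5. In the libraries labelled *Thrb*-KO, 1 rose (*Trib1*, 0.67) and 1 fell (*Phlda1*, -0.63), where 0.411% and 0.601% of all genes did. The *Trib1* call was kept in 7 of the 18 fits that left out 1 library, those without hypothyroid wild-type replicate 2, any hyperthyroid wild-type replicate or hypothyroid *Thrb*-KO replicate 1 or 4, and that of *Phlda1* was lost without hypothyroid *Thrb*-KO replicate 1 or hyperthyroid *Thrb*-KO replicate 4. The difference between responses was called for 9 (6 higher, 3 lower, against 1.78% and 2.48% of all genes), with *Id3* at 1.79 (adjusted p = 2.45e-04) and *Cyr61* at -1.25 (adjusted p = 0.00373). Of these calls, *Myc* was kept in 5, *Nfil3* in 8 and *Ier5* in 16 of the 18 fits that left out 1 library, and the others in all. *Thrb*-KO was lower for 3 and higher for 0 in hypothyroid mice (2.01% and 1.01% of all genes), and lower for 7 and higher for 3 in hyperthyroid mice (2.32% and 2.54%), with *Id3* at 2.34 ± 0.335 CPM among those lower there (adjusted p = 5.91e-07). In hyperthyroid mice the lower call of *Sik1* was kept in 5 and the higher call of *Cyr61* in 13 of the 18 fits that left out 1 library.

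Of 13 AP-1 and ATF relatives tested, T3 in wild type called 1 (background 3.87% higher and 5.59% lower), *Atf5* (0.64, adjusted p = 0.0443). Its level ranged from 30.3 to 41.5 CPM in hypothyroid wild type and was 40.1, 37.6, 106 and 58.0 CPM in the hyperthyroid libraries, and the call of *Atf5* was kept in 3 of the 18 fits that left out 1 library, those without hypothyroid wild-type replicate 4 or hyperthyroid wild-type replicate 1 or 2. Without replicate 3 of hyperthyroid wild type its difference was 0.33. Of 3 NR4A receptors, orphan nuclear receptors with early kinetics, 1 was lower in hyperthyroid *Thrb*-KO (*Nr4a3*, -1.27, adjusted p = 0.0483), where 2.32% of 13145 genes were. Of 15 pairs of a receptor and a comparison, 5 had an unadjusted p under 0.05. Over all 13145 genes, between 1077 (T3 in *Thrb*-KO) and 3776 (T3 in wild type) had one, depending on the comparison. The *Nr4a3* call was kept in 4 of the 18 fits that left out 1 library, those without hypothyroid wild-type replicate 2 or 3, hyperthyroid wild-type replicate 3 or hypothyroid *Thrb*-KO replicate 1, and it was -2.14 in replicates 1 and 2 (adjusted p = 1.25e-04) and -0.46 in replicates 3 to 5 (adjusted p = 0.163). *Nr4a1* averaged 241 ± 68.4 CPM in hypothyroid and 139 ± 73.8 in hyperthyroid wild type, with 109 ± 90.4 and 65.8 ± 33.6 CPM in *Thrb*-KO, and was not called. Neither of the 2 EGR relatives tested nor any of 6 MAP kinase phosphatases was called by limma in the 5 comparisons, where 4 of 10 and 7 of 30 pairs of a gene and a comparison had an unadjusted p under 0.05. The background of these counts is the same 1077 to 3776 of 13145 genes per comparison. Among 3 phosphatases below 1 CPM in some libraries, *Dusp4*, which removes phosphate from ERK, had 8.65 ± 0.624 CPM in hypothyroid wild type, 1.79 ± 0.700 in hyperthyroid wild type, 3.44 ± 1.14 in hypothyroid *Thrb*-KO and 1.59 ± 0.247 in hyperthyroid *Thrb*-KO. *Dusp4* fell by 1.83 with T3 in wild type (adjusted p = 1.01e-06) and by 0.74 in *Thrb*-KO (adjusted p = 0.0224), with -1.09 between the responses (adjusted p = 0.0140), and it was lower in hypothyroid *Thrb*-KO by -1.16 (adjusted p = 3.69e-04). Its call for T3 in *Thrb*-KO was lost in replicates 3 to 5 (-0.54, adjusted p = 0.202) and without hypothyroid *Thrb*-KO replicate 1, 2 or 5 or hyperthyroid *Thrb*-KO replicate 4 or 5. *Dusp2*, another phosphatase of this kind, was higher in hyperthyroid *Thrb*-KO (1.54 ± 0.310 CPM) than in hyperthyroid wild type (0.606 ± 0.292), by 0.67 (adjusted p = 0.0193), a call lost without hyperthyroid wild-type replicate 2 or hyperthyroid *Thrb*-KO replicate 3. The fit of 14472 genes read for *Dusp4* and *Dusp2* called 10.4% of genes for T3 in wild type and 1.33% in *Thrb*-KO. It called 5.13% for the difference between responses, 3.54% between the hypothyroid and 5.65% between the hyperthyroid genotypes. Of 26 kinases and factors upstream of the early genes, T3 in wild type called 0 higher and 3 lower (background 3.87% and 5.59%). *Elk3*, a partner of SRF, was among them (53.3 ± 2.17 to 31.3 ± 3.44 CPM, -0.75, adjusted p = 1.41e-06). The other calls, *Rps6ka2* and *Prkacb*, were lost without hyperthyroid wild-type replicate 3. The median of the 26 was -0.13 against -0.04 for all genes.

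In the pituitary TRβ list (8051 peaks), 5 of 10 members had a peak within 20 kb, where 30.5% of 21695 gene symbols and 41.3% of the tested genes did, a share near that of the members. The pituitary peak at *Jun* (chr4:94718501-94719100) covered its start with 34 reads of the tagged receptor against 6 of the control. That of *Egr1* (chr18:35019951-35020400) lay 461 bp before the start (36 against 3 reads), and that of *Dusp1* 137 bp before it (21 against 3). *Fosb* had its peak inside the gene, over a coding exon and an intron (chr7:19892401-19892650, 15 against 2 reads). *Ier2* had one 780 bp beyond its end (chr8:87184001-87184450, 27 against 1). The lists merge the libraries of each genotype, so that a peak carries no replicate value, and a peak of the pituitary list held a median of 18 reads against 2. The nearest pituitary peaks of the other members were at 20123 bp (*Egr2*), 39561 bp (*Junb*, in *Mast1*), 41082 bp (*Atf3*, over the start of *D730003I15Rik*, 55 against 2 reads), 142678 bp (*Fos*, in *Jdp2*) and 645111 bp (*Ptgs2*).

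In the cerebral cortex list (5164 peaks), 7 of 10 members had a peak within 20 kb, against 26% of all symbols and 34.8% of tested genes, with 13 peaks in all. The same 5 genes were among them, and *Jun*, *Egr1*, *Ier2* and *Dusp1* had a cortex peak that overlapped the pituitary one in position. *Fos* (chr12:86808701-86808950, 5890 bp before the start, 11 against 1 reads) and *Junb* (chr8:87522401-87522750, 19784 bp before the start in *Hook2*, 10 against 1) had a peak in the cortex list alone, at low read counts. In the T3-regulated ATAC list (1776 peaks), 2 of 10 members had a peak, *Ptgs2* and *Junb*, against 5.95% of all symbols and 7.78% of tested genes. The one at *Junb* (chr8:87510028-87510198) lay 7411 bp before its start. Unlike *Ptgs2*, *Junb* passed no call in RNA.

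**Figure D5:**
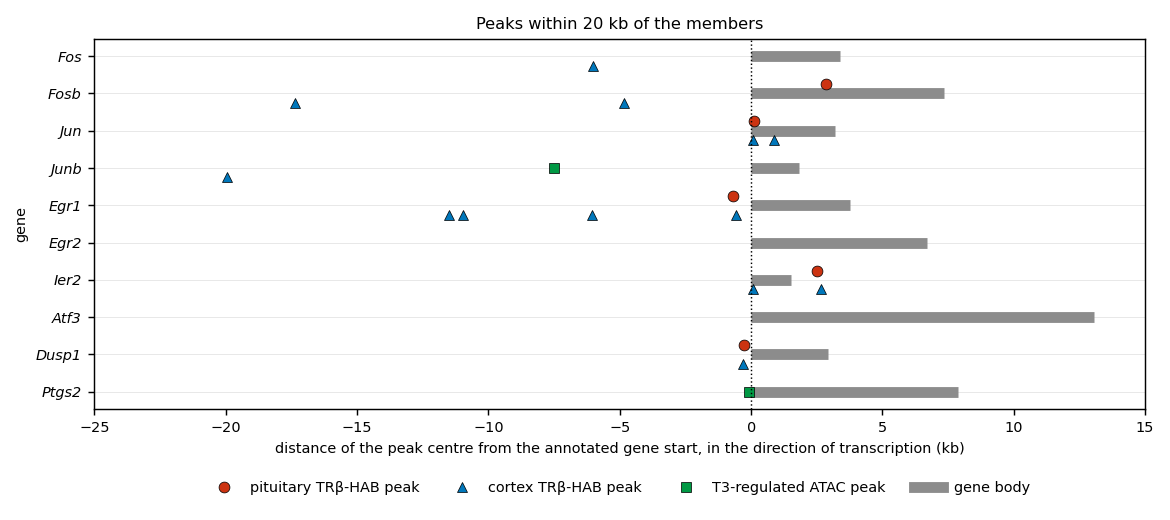
Centres of peaks within 20 kb of each gene, in kb from its annotated start in the direction of transcription (x axis), with grey bars for the gene bodies and 3 symbols for the 3 lists. Pituitary TRβ peaks stand at 5 genes, and the T3-regulated ATAC peaks stand at *Ptgs2* and *Junb*, where no pituitary TRβ peak lay within 20 kb.

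A direct repeat of AGGTCA with a spacer of 4 bases, the element that TRβ is known to bind with RXR, was sought in these peaks. Up to 2 of its 12 hexamer bases could differ. It was in 0 of the 5 pituitary peaks of the members, where 20.9% of the list held it, in 2 of the 13 cortex peaks (9.3% of the list) and in 0 of the 2 ATAC peaks (30.9% of the list). Its closest match was in the cortex peak of *Fos*, with 1 mismatch, which is shown on the plus strand with the pair of hexamers in capitals. The part of the pituitary TRβ peak before the start of *Jun* is shown beside it as the only pituitary peak over a member's start (gene direction, none of the capital motifs above). The ATAC peak of *Junb* (gene direction) holds TGACG and the EGR motif, in capitals.
*Fos*, cortex TRβ peak, chr12:86808701-86808950: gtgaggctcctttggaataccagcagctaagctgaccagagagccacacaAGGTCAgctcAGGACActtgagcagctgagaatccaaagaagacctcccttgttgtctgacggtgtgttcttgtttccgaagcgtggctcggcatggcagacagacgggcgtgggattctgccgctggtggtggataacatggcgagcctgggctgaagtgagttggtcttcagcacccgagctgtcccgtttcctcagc
*Jun*, pituitary TRβ peak before the start, chr4:94718914-94719100: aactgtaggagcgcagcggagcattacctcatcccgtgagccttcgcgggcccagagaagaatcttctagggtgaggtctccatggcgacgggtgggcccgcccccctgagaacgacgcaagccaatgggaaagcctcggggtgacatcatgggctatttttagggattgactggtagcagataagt
*Junb*, T3-regulated ATAC peak, chr8:87510028-87510198: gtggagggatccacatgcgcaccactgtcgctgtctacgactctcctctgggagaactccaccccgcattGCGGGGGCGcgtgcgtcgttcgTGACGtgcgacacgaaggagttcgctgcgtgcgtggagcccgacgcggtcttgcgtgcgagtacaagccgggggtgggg

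Over the 250 bases before the GENCODE start, read on both strands, TGACG was found in 7 of the 10 members (*Fos*, *Fosb*, *Junb*, *Egr1*, *Ier2*, *Dusp1* and *Ptgs2*) and in 20.2% of 20200 protein-coding promoters. The full element TGACGTCA, which contains TGACG, was found in *Ier2* and *Dusp1* (2% of promoters). CACGTG was found in *Dusp1* and *Ptgs2* (6.81%), GCGNGGGCG in *Fosb* (6.39%), and the CArG box that SRF is known to bind in *Egr1* with 2 matches (1.33%). The AP-1 motif TGANTCA (6.03%) and the receptor half-site AGGTCA (12.2%) were found in 0 members. In *Ptgs2* the TGACG match spans bases 80 to 76 and the E-box bases 77 to 72 before the GENCODE start. Both lie after the RefSeq start of *Ptgs2*, which is 93 bp before the GENCODE start. *Jun*, *Egr2* and *Atf3* had no match to TGACG in this window.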

How the data were processed

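RNA was measured in 18 pituitary libraries of 4 groups. The authors mapped single-end reads to the RefSeq transcripts (mm9). The deposited table holds CPM (reads scaled to the library total) per transcript, not divided by length. Whole reads were recovered from the CPM steps (at least 99.9966% of values within 0.02 reads of a whole number). For TRβ binding, the authors merged libraries by genotype and called peaks with SICER 1.1, and the deposited lists give read counts per peak. The lists also hold the authors' p-value and scaled fold (ratio) per peak, and the ATAC list holds an adjusted p-value from the authors' own test of T3, none of which was used here.

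Per symbol the transcript with the highest mean CPM was kept. The 13145 genes above 1 CPM in all 18 libraries were fitted with limma 3.58.1 (R 4.3.3), with a mean-variance trend, on log2(CPM + 1). All 4 groups shared the model, and *Atf3* and *Ptgs2* were read from the same fit to 14472 genes above 1 CPM in at least 4 libraries. Calls needed a Benjamini-Hochberg adjusted p under 0.05 over all genes and a 1.5-fold change. Fold changes on this scale understate the change of low genes. Alternatives were edgeR 4.0.16 (quasi-likelihood, TMM), DESeq2 1.42.0, pseudocounts of 0.5 and 0.1, other filters, TMM-scaled CPM, blocks, each library set alone and leaving out each library. The edgeR fits with the library set as a block and with no filter were added after seeing the data. Exact permutation tests over libraries (scipy 1.17.1) were two-sided. The scripts were tested on simulated data.

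Replicate numbers come from the sample titles. Between every pair of groups same-numbered libraries deviated together (r of 0.130 to 0.815 over genes). Of 18 libraries, 5 correlated best with their own number in other groups. Same-numbered libraries also share a library set, so these values cannot tell pairing by number from the set. The main fit did not use the numbers, and the replicate block was an alternative only. What a number stands for is not given in the sources used here, and neither is which of the library kits named in the methods made which library. Pearson's r between libraries of a group was 0.974 to 0.999. Each library is a separate pool of pituitaries, and p-values measure the spread between these pools. Loci follow GENCODE on mm9 and sequences were read from mm9. RefSeq starts come from a table of GRCm38 and were used for their offset from the GENCODE start only. A gene was near a peak within 20 kb of its body. All members were named, with *Thrb* and, from lists of related genes and cell type markers, called genes with large changes. The members and lists were chosen with earlier results of these data known, so their counts of called genes are no test against the shares of all genes.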

Additional observations from a re-analysis of the deposited data

Results flagged for a closer look

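A single library stood apart from its group in 3 of the 40 groups tested (10 genes by 4 groups, by Dixon's test). The usual rate of about 1 in 20 holds for normal and independent values. These are raw CPM of genes that vary together, so the count cannot be set against that rate. *Fos* was at 166 CPM in replicate 4 of hypothyroid *Thrb*-KO, with the other 4 libraries at 11.3 to 48.9 CPM. *Atf3* was at 3.48 CPM in the same library, with the others at 0.512 to 1.08 CPM. *Egr2* was at 2.75 CPM in replicate 5 of hyperthyroid *Thrb*-KO, with the others at 1.61 to 1.69 CPM. The T3 response of *Ptgs2* differed between wild type and *Thrb*-KO by the test of the interaction (log2 difference -1.55, limma, adjusted p = 0.038), but *Ptgs2* entered that fit only through the hypothyroid wild-type libraries where it was high. The call was lost with no filter (edgeR, adjusted p = 0.0502) and without any of 12 of the 18 libraries (0.0503 to 0.0908). The 4 hypothyroid wild-type libraries ranged from 1.71 to 12.1 CPM.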

How the results depend on the processing

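Of 50 pairs of a member and a comparison, 4 were called, and none of these changed sign under any alternative. Of the 46 others, 23 changed sign under at least 1 alternative and 9 were called under at least 1. *Ptgs2* was called in all 34 alternatives for T3 in wild type (adjusted p 2.40e-08 to 0.0256) and between the hypothyroid genotypes (9.53e-10 to 0.0113), and in 17 of 33 for the difference between responses (5.12e-04 to 0.0908). The filter was set once on all 18 libraries, and *Ptgs2* passed it only through hypothyroid wild type. All alternatives but those with no filter carry that selection, so these counts cannot measure it. With no filter *Ptgs2* was called in the first 2 of these comparisons and not for the difference between responses. *Atf3* between the hyperthyroid genotypes was called in 33 of 34. The replicate block changed no call of a member: with it *Ptgs2* had -1.76 for T3 in wild type (adjusted p = 5.05e-04), -1.55 between the responses (0.0276) and -1.75 between the hypothyroid genotypes (0.00119), *Atf3* had -1.07 between the hyperthyroid genotypes (0.0118), and the counts of called members under the block were 1, 0, 1, 1 and 1.

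Counts of called members moved as follows, and the cause was not tested. For T3 in wild type (1 member), replicates 1 and 2 alone called 3 (9.54% of all genes) and replicates 3 to 5 alone called 2 (11.5%). For the difference between responses (1 member), replicates 1 and 2 alone called 2 (5.95%). No filter (3.25%), edgeR with no filter and a pseudocount of 0.1 called 0. Between the hypothyroid genotypes (1 member), DESeq2 and edgeR with the library set as a block called 2, the second being *Egr2*. Replicates 1 and 2 alone called 3 there (3.04%). Between the hyperthyroid genotypes (1 member), that edgeR fit and a fit of only the groups compared called 2. Replicates 1 and 2 alone called 3 there (5.48%) and replicates 3 to 5 alone 0 (8.47%). Leaving out 1 library gave 1 to 2 members for T3 in wild type, 0 to 0 in *Thrb*-KO, 0 to 1 for the difference between responses, 1 to 2 between the hypothyroid and 1 to 2 between the hyperthyroid genotypes. The second member was *Atf3* without hyperthyroid wild-type replicate 3 or hypothyroid *Thrb*-KO replicate 4, and *Egr2* without hypothyroid wild-type replicate 3 or, in hyperthyroid mice, replicate 2. For fits named here without a share of all genes, the count of members cannot be set against a background.

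Members with a pituitary TRβ peak (5) numbered 2 by overlap with the gene and 8 within 50 or 100 kb (23.5%, 55.8% and 70.8% of tested genes), those with a cortex peak (7) numbered 2 by overlap (20.5%) and 4 with only peaks of at least the median read count (25.2%), and those with an ATAC peak (2) numbered 1 by overlap (5.01%) or within 5 kb (5.62%). A stricter threshold on ATAC peaks was not run, since it needs the authors' own test values, and a fit of only the groups compared is not defined for the difference between responses. Depth limits *Ptgs2* outside hypothyroid wild type, where it rests on 4 to 36 reads.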

Other observations

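Of 8 heat shock genes tested, whose products help proteins fold under stress, T3 in wild type called 2 lower and 0 higher (5.59% and 3.87% of all genes), *Hspa1a* (-1.93, adjusted p = 0.0119) and its near-identical copy *Hspa1b*, between which reads cannot be divided with certainty. The *Hspa1b* call was lost without hypothyroid wild-type replicate 2 or hyperthyroid wild-type replicate 4, and in replicates 3 to 5 neither was called (adjusted p = 0.0901 for *Hspa1a* and 0.112 for *Hspa1b*). *Hspa1a* ranged from 13.0 to 98.7 CPM in hypothyroid wild type and averaged 6.86 ± 3.45 CPM (SD) in the hyperthyroid one, 9.93 ± 3.47 in hypothyroid *Thrb*-KO and 8.63 ± 5.77 with T3. The library at 98.7 CPM was replicate 2 of hypothyroid wild type, which was the highest of its group for 5 of the 8 early genes above 1 CPM in all libraries.

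*Npas4*, an early factor of excitable cells, fell with T3 in wild type from 15.6 ± 1.43 to 8.94 ± 0.979 CPM (-0.74, adjusted p = 8.86e-04) and was at 14.7 ± 3.03 and 18.2 ± 2.81 CPM in hypothyroid and hyperthyroid *Thrb*-KO. The difference between its responses was -1.04 (adjusted p = 0.00223). *Id1* and *Id2* had the pattern of *Id3*, with interactions of 1.20 (adjusted p = 0.00619) and 1.18 (adjusted p = 0.00252). *Nfil3*, a repressor under circadian control, fell with T3 in wild type from 31.1 ± 5.22 to 19.1 ± 3.48 CPM (-0.68, adjusted p = 0.00285) and was lower in hypothyroid *Thrb*-KO (15.9 ± 1.64 CPM, -0.91, adjusted p = 4.01e-04).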
